A study of Mus musculus with 66 samples.

Results

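All genes were compared between 120 and 60 minutes after release from mitotic arrest in mouse embryonic stem cells that received auxin to degrade the nuclear receptors Esrrb and Nr5a2. The genes are the 8864 of 13957 in the authors' deposited table that reached at least 1 TPM (a unit of RNA level scaled for gene length and library size) in any of the 9 stages with auxin. The choice did not use the difference between 120 and 60 minutes. Just inside this limit lay Ccdc159, at most 1.00055 TPM, with a log2 difference of 0.48. The cells are an E14Tg2a derivative, given as 129/Ola, whose labels name both receptors as targets of degradation by auxin. The study measured RNA in 2 arms, with and without auxin, in asynchronous cells, in mitotic cells and at 7 times from 20 to 120 minutes after release, with 3 libraries per group. The groups compared here are cells with auxin at 120 minutes and cells with auxin at 60 minutes, and beside them cells without auxin at 120 and at 60 minutes. Titles give the arm, since the treatment label is ctl throughout. The labels do not say whether the 3 libraries per group are separate cultures. Every cell compared carries the degradable receptors, and no library came from cells given auxin without them, so auxin itself, loss of Esrrb and loss of Nr5a2 cannot be told apart. The deposited value is the authors' mean of the 3 libraries of a group and carries no error, so no difference below has a test, and each is a description of these libraries.

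When a cell enters mitosis its chromosomes condense and most transcription stops, and genes are switched on again as the daughter cells enter G1. Esrrb and Nr5a2 are transcription factors of naive pluripotency that recognise a shared DNA element, and both can stay at some of their sites on mitotic chromosomes, which is called bookmarking. Transcription by RNA polymerase II proceeds along the gene at a limited speed, so the RNA of a long gene takes longer to complete than that of a short one. Embryonic stem cells have a short G1, and genes of DNA replication are active early in it.

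Most genes lay lower at 120 than at 60 minutes with auxin, by a small amount. Of the 8864 genes 5093 (57.5%) were lower and 3768 (42.5%) higher, and the median difference in log2(TPM + 1) was -0.09, with quartiles at -0.43 and 0.26. A difference of 1.5-fold or more on this scale was seen for 765 genes that were higher, 8.63% of all, and for 1428 that were lower, 16.1% of all. At 2-fold the counts were 100 higher (1.13%) and 362 lower (4.08%). Single genes ranged from -3.0 to 2.77. The added 1 TPM makes differences of low genes smaller than their true ratios.

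The scale matters for the sign of a small difference. The listed genes summed to 41287 TPM at 120 minutes and 46542 TPM at 60 minutes with auxin, a log2 ratio of -0.17. Scaling both stages to equal totals moved the median of all genes by 0.13 to 0.04, and quantile normalization moved it by 0.10 to 0.01. Of the genes past 1.5-fold, 65.1% were lower as deposited, 44.5% with equal totals and 51.1% after quantile normalization. Small differences are therefore read below against the median of all genes. Equal totals raises every difference, so it can lose no gene that was higher, and 971 of the 1428 lower genes stayed past the fold. After quantile normalization 610 of the 765 higher and 850 of the lower genes did. The library depth is unknown, since TPM keeps no depth. In such bulk samples, fewer cells of a type and less RNA per cell cannot be told apart.

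The labelled cell type was checked against its markers. Pou5f1, a core pluripotency factor, stood at 11.7 TPM at 120 minutes and 17.0 TPM at 60 minutes with auxin, Zfp42 at 46.5 and 28.9 TPM, and Sall4 at 6.34 and 10.9 TPM. Nanog was lower, at 1.25 TPM at 120 minutes and 4.35 TPM at 60 minutes. Sox2 was not analysed here. The summed level of the naive pluripotency list was 242 TPM at 120 minutes and 279 TPM at 60 minutes. Few markers of other cells reached 1 TPM. Of 13 primitive endoderm markers none did at any stage with auxin, and the 8 in the table summed to 0.71 TPM at 120 minutes and 0.74 TPM at 60 minutes. Trophectoderm markers, of which Eomes and Tfap2c reached 1 TPM, summed to 3.42 and 6.43 TPM. Germ layer and neural markers (3 of 20 reached 1 TPM) summed to 8.97 and 10.2 TPM, and markers of the 2-cell-like state (1 of 13, Eif1a) to 13.6 and 19.2 TPM. The sum for the 2-cell-like state, over 4 genes in the table of which only Eif1a reached 1 TPM, was above the level of Pou5f1 at both times. This sets a sum against a single gene, and the sum was below that of the naive list. Fibroblast markers (1 of 11, Vim) summed to 2.26 and 3.88 TPM. Each of these sums was lower at 120 than at 60 minutes, as was that of the naive list, and their part in the results below was not tested. The mesoderm gene Mesp1 was listed at 0 at both times.

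The genes furthest below their 60-minute level had stood high at 50 or 60 minutes and were closer to the level of asynchronous cells by 120 minutes. Dnajb14, a co-chaperone of the endoplasmic reticulum, stood at 13.5 TPM at 60 minutes, 4.09 TPM at 90 minutes and 1.17 TPM at 120 minutes, a log2 difference of -2.74 between 120 and 60 minutes. Atp1b1, a subunit of the sodium pump, stood at 21.8, 6.07 and 2.89 TPM at 60, 90 and 120 minutes (-2.55). Irs2, an adaptor of insulin signalling, stood at 13.1, 5.23 and 1.98 TPM at these times (-2.24). In mitotic cells Dnajb14, Atp1b1 and Irs2 had stood at 0.49, 1.15 and 0.50 TPM, so their level was high for a short time only. Syf2, a splicing factor, had 19.6, 5.74 and 2.66 TPM (-2.50), and Polg2, the accessory subunit of mitochondrial DNA polymerase, had 25, 7.09 and 3.99 TPM (-2.38). Tmem230, a membrane protein of vesicles, had 44.0, 12.2 and 9.37 TPM (-2.12). Fam72a (-2.25), the growth factor gene Fgf18 (-2.10), Oat, which encodes ornithine aminotransferase (-2.09), and the kinase gene Pkn3 (-2.05) had the same order of levels. The histone genes Hist1h2br, at 16.1, 5.05 and 1.13 TPM (-3.0), and Hist1h2bp (-2.39) belong to a family of near-identical genes, so reads may be split among copies and these values are uncertain.

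Genes furthest above their 60-minute level included several long noncoding RNAs. Pvt1, a noncoding RNA gene beside Myc, stood at 1.66 TPM at 60 minutes, 5.09 TPM at 90 minutes and 9.80 TPM at 120 minutes (2.02). Mirg stood at 0.54, 1.58 and 9.48 TPM (2.77), and Rian, from the same imprinted region, at 3.26, 10.5 and 12.8 TPM (1.69). Among protein-coding genes Klhl26, a Kelch protein gene, had 8.96, 20.6 and 35.6 TPM (1.88). At 120 minutes Klhl26 thus stood far above its 3.72 TPM in asynchronous cells with auxin. Neurod1, a neurogenic transcription factor, had 1.38, 3.9 and 7.12 TPM (1.77), and Ptpn14, a phosphatase of the Hippo pathway, 1.31, 4.05 and 6.51 TPM (1.70). St14, a membrane protease, had 1.61, 4.45 and 6.99 TPM (1.62). The predicted gene Gm13648 differed by 1.94. Smaller differences belonged to Def6 (1.56), to Srxn1, which encodes sulfiredoxin (1.54), and to the drug efflux pump gene Abcb1b (1.54). Map2k7, a kinase that activates JNK, was listed at 0 at 60 minutes and at 3.38 TPM at 120 minutes, so no fold is given. Hist1h2bq, at 23.1, 60.1 and 71.4 TPM, again has close copies. Without auxin each gene named in these paragraphs on the furthest genes lay on the same side of its 60-minute level.

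**Figure D1:**
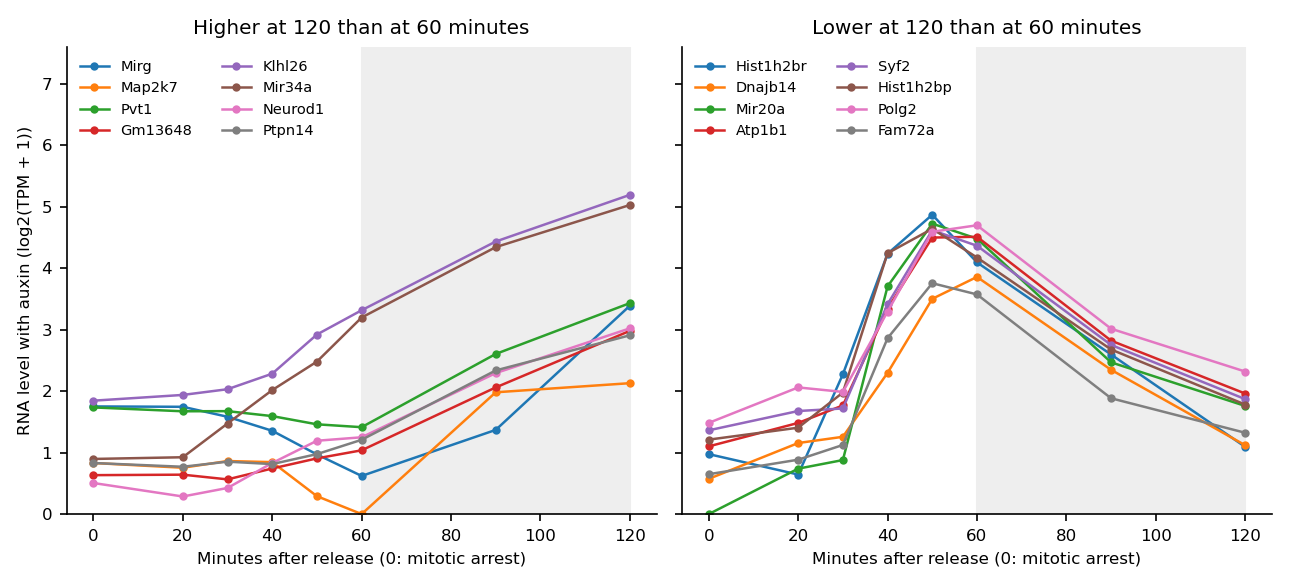
RNA level with auxin as log2(TPM + 1) against minutes after release (0 is mitotic arrest) for the 8 genes with the largest positive (left) and the 8 with the largest negative (right) difference between 120 and 60 minutes that also differed the same way at 90 minutes. Each point is the authors' mean of 3 libraries, and the grey band spans 60 to 120 minutes. The genes on the right peak at 50 or 60 minutes, and those on the left are highest at 120 minutes.

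The 90-minute libraries, which are not part of the comparison of 120 with 60 minutes, place the change in time. For the 1428 lower genes the median difference was -0.49 between 90 and 60 minutes and -0.36 between 120 and 90 minutes, and for the 765 higher genes 0.51 and 0.25. The 90-minute level lay between the other levels for 1391 of the lower and 717 of the higher genes. It lay above both for 45 of the higher genes, which were thus highest at 90 minutes. These differences share columns with the choice of the genes. Over all genes, 342 (3.86%) were 1.5-fold higher and 537 (6.06%) 1.5-fold lower at 90 than at 60 minutes, and 53 (0.598%) were higher and 168 (1.9%) lower at 120 than at 90 minutes. The median of all genes was 0.03 between 90 and 60 minutes, with 4739 genes higher, and -0.12 between 120 and 90 minutes, with 6171 genes (69.6%) lower. As deposited, the general lowering thus lay in the second interval, although fewer genes passed the fold there. TPM totals were 46542, 45493 and 41287 at 60, 90 and 120 minutes. The medians of these intervals are not given at equal totals, and the part of the scale in this was not tested. Of the 6671 genes within 1.5-fold, 2677 (40.1%) had their 90-minute level above both others.

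As deposited, lower genes had stood far above both mitotic and asynchronous cells at 60 minutes. TPM totals with auxin were 17155 in mitotic and 23435 in asynchronous cells, against 46542 at 60 minutes and 41287 at 120 minutes. Levels set against mitotic or asynchronous cells, here and in the other paragraphs, were not rescaled for these totals. The part of the scale in them was not tested. Their median was 0.75 above mitotic cells at 120 minutes and 1.62 above them at 60 minutes, and 0.51 and 1.37 above asynchronous cells. For the higher genes the medians were 1.02 at 120 minutes and 0.24 at 60 minutes above mitotic cells, and 0.72 and -0.04 against asynchronous cells. Over all genes they were 0.84 and 0.96 against mitotic cells and 0.57 and 0.68 against asynchronous cells. The 120-minute level was nearer than the 60-minute level to asynchronous cells for 1404 (98.3%) of the lower genes, 146 (19.1%) of the higher genes and 62.1% of all genes. The same 60- and 120-minute columns chose these genes, so the shares are a description and no separate result.

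Genes of sterol synthesis and uptake, which supply membrane cholesterol, lay lower at 120 than at 60 minutes with auxin. Of 34 of 36 listed members that reached 1 TPM, 18 were 1.5-fold lower, none 1.5-fold higher and 32 lower by any amount. These compare with 16.1%, 8.63% and 57.5% of all genes. The list median was -0.67 beside -0.09 over all genes. Insig1, which holds back sterol regulators in the endoplasmic reticulum, stood at 24.8 TPM at 60 minutes, 7.52 TPM at 90 minutes and 4.71 TPM at 120 minutes (-2.18). Idi1, an isomerase of the isoprenoid pathway, stood at 20.7, 7.41 and 5.61 TPM (-1.71), and the desaturase gene Scd2 at 26.1, 11.8 and 7.57 TPM (-1.66). Enzymes from Acly (-1.34), which makes cytosolic acetyl-CoA, to Cyp51 (-1.18), Msmo1 (-1.04) and Sqle (-0.83) were past 1.5-fold. Srebf2, the regulator of these genes, stood at 5.55 TPM at 120 minutes and 6.76 TPM at 60 minutes (-0.25), within 1.5-fold. The 2 members that were higher were Elovl6, an elongase (0.57), and Acaca, an acetyl-CoA carboxylase (0.50). Elovl6 spans 106110 bp, against 7251 bp for Insig1.

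Mitotic genes, which act in G2 and mitosis and are repressed in G1, also lay lower at 120 than at 60 minutes. Of 46 of 47 listed members 22 were 1.5-fold lower, none was 1.5-fold higher and 40 were lower by any amount, beside 16.1%, 8.63% and 57.5% of all genes, with a median of -0.55. Ube2c, which attaches ubiquitin for the anaphase-promoting complex, stood at 8.69 TPM at 60 minutes, 3.33 TPM at 90 minutes and 2.38 TPM at 120 minutes (-1.52). The mitotic kinase gene Aurka stood at 4.97, 1.82 and 1.38 TPM (-1.32), and the spindle protein gene Nusap1 at 3.03, 1.04 and 0.62 TPM (-1.31). Aurka and Nusap1 at 120 minutes were below their asynchronous levels of 2.69 and 2.10 TPM. In mitotic cells Ube2c, Aurka and Nusap1 had stood at 0.89, 1.31 and 0.37 TPM, so their levels had risen after release. The list median was 1.36 above mitotic cells at 60 minutes and 0.75 above them at 120 minutes, beside 0.96 and 0.84 over all genes. At 120 minutes the list thus lay below the median of all genes on this measure. Cdk1 (-1.02), Ccnb1 (-0.99) and Hmmr (-1.18) were likewise past 1.5-fold, while Top2a (-0.35) and Cenpe (-0.37) were not.

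The promoters of the members that lead both lists are shown because the lists share one short motif and differ in another. The sequences are RefSeq windows on GRCm38.p6, 250 bases before to 50 bases after an annotated start. Capitals mark CCAAT, the box bound by NF-Y, and TTTGAA, the core of the cell cycle homology region, on either strand, so that they also read ATTGG and TTCAAA. For a gene with several starts the window with most matches was taken. The windows lie at chr2:164769679-164769978 on the plus strand for Ube2c, chr2:172370521-172370820 on the minus strand for Aurka, chr5:28071162-28071461 on the plus strand for Insig1 and chr13:8885356-8885655 on the plus strand for Idi1.
Ube2c: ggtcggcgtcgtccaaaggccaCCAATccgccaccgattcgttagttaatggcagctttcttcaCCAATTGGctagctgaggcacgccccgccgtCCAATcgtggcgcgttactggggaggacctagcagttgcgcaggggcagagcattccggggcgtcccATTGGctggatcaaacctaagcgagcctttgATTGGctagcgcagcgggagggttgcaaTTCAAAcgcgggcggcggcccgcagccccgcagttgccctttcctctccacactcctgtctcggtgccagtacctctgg
Aurka: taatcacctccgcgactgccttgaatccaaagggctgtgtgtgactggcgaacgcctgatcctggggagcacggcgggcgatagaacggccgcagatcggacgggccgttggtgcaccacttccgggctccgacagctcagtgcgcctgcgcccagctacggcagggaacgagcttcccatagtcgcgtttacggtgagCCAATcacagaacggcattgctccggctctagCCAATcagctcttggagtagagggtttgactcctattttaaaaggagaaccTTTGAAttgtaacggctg
Insig1: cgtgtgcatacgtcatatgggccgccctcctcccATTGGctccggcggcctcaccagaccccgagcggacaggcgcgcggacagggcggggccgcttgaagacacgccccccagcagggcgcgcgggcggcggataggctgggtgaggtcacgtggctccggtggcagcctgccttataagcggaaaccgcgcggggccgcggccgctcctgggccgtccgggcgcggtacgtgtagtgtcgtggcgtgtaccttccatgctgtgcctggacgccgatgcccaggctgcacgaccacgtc
Idi1: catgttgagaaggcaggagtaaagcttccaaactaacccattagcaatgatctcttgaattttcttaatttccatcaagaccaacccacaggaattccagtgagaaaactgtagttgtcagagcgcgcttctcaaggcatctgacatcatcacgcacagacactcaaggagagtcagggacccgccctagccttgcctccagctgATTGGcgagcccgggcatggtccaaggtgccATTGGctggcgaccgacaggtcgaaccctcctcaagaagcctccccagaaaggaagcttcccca
Ube2c held 6 matches to CCAAT, of which a pair overlap, and 1 to TTTGAA. Aurka held 2 and 1, Insig1 1 and 0, and Idi1 2 and 0. The window of Nusap1 held neither. Over the lists CCAAT was found for 32 of 39 mitotic genes with a window (82.1%) and for 20 of 24 sterol genes (83.3%), against 3166 of 7164 genes of at least 1 TPM (44.2%) and 37.4% of all 32851 windows. TTTGAA was found for 28 mitotic genes (71.8%) and 3 sterol genes (12.5%), against 13.6% of genes of at least 1 TPM and 17.9% of all windows. These shares take any of a gene's windows. Among genes past 1.5-fold, CCAAT was found for 619 of 1159 lower genes (53.4%) and 222 of 603 higher genes (36.8%), and TTTGAA for 12.9% and 11.8%. Other letters were searched in the same way, and shares are given here only for some motifs and lists. The sterol regulatory element letters TCACNCCAC were found for 1 of 24 sterol genes (4.17%), against 1.41% of genes of at least 1 TPM. The letters CACGTG, TGACGTCA and TTTCCCGC were searched as well. A match is a string of letters and no evidence of binding.

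Genes of the G1/S transition and DNA replication lay lower in part. Of 52 of 54 members 17 were 1.5-fold lower and 2 were 1.5-fold higher, beside 16.1% and 8.63% of all genes, with a median of -0.33. Slbp, which binds histone transcripts, stood at 25.5 TPM at 60 minutes, 12.1 TPM at 90 minutes and 7.69 TPM at 120 minutes (-1.61). The cyclin gene Ccne1 stood at 17.0, 8.64 and 5.14 TPM (-1.55), and Mcm4, of the replicative helicase, at 16.7, 11.3 and 7.02 TPM (-1.14). Pcna, the sliding clamp, was at 30.0 TPM at 120 minutes and 63.0 TPM at 60 minutes (-1.04). The 2 higher members were the DNA polymerase and primase subunit genes Pola1, at 2.52, 4.42 and 6.46 TPM at 60, 90 and 120 minutes (1.08), and Prim2, at 2.67, 4.86 and 4.67 TPM (0.63). Pola1 spans 327622 bp and Prim2 216001 bp, whereas Slbp, Ccne1 and Pcna span 12520, 9507 and 3895 bp. The E2F motif letters TTTGGCGC, searched on both strands, were found in windows of 9 of 42 members (21.4%), against 1.3% of genes of at least 1 TPM and 0.514% of all windows.

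Immediate early genes, which respond to growth factors without new protein synthesis, were past 1.5-fold lower in 8 of 15 members of at least 1 TPM, from a list of 30, and higher in 1, beside 16.1% and 8.63% of all genes, with a median of -0.64. Fosb stood at 2.68 TPM at 60 minutes, 0.81 TPM at 90 minutes and 0.27 TPM at 120 minutes (-1.54), and the phosphatase gene Dusp4 at 3.57, 1.33 and 0.75 TPM (-1.38). Dusp5 (-1.36), Egr1 (-0.91) and Srf (-0.67) were also past the fold. Fosl1, another partner of Jun, had the opposite course, at 1.4, 2.89 and 5.4 TPM (1.42). Its level in asynchronous cells was 0.17 TPM. TATAAA, the TATA box letters, was found on either strand in windows of 5 of 12 members (41.7%), against 7.54% of genes of at least 1 TPM and 13.6% of all windows. The Wnt list had a similar share, 5 of 14 (35.7%). Among genes past 1.5-fold it was found for 8.02% of lower and 7.63% of higher genes, near the share of all genes.

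Naive pluripotency genes lay on both sides, more often lower at 120 than at 60 minutes with auxin. Of 36 of 41 listed members, 24 were lower and 12 higher by any amount, beside 57.5% and 42.5% of all genes, and the median was -0.26. Past 1.5-fold, 14 were lower and 2 higher, beside 16.1% and 8.63% of all genes. Their median was 0.04 between 90 and 60 minutes and -0.29 between 120 and 90 minutes. Nanog stood at 4.35 TPM at 60 minutes, 1.85 TPM at 90 minutes and 1.25 TPM at 120 minutes (-1.25), and Klf4 at 4.31, 1.49 and 0.87 TPM (-1.50). Mycn stood at 15.6, 8.04 and 4.32 TPM (-1.64) and Myc at 5.2, 2.21 and 1.68 TPM (-1.21). These 4 transcription factor genes were thus well below their 60-minute level by 90 minutes. Dppa5a, an RNA-binding protein gene, stood at 18.6, 13.1 and 7.55 TPM (-1.20), and Lin28a, which blocks let-7 processing, at 6.91, 5.01 and 2.55 TPM (-1.16). Klf2 had 11.9, 12 and 7.4 TPM (-0.62), so its lower level appeared after 90 minutes. Also past the fold were Spp1 (-0.83), Gbx2 (-0.83), Trim28 (-0.77), Dppa3 (-0.76), Sall4 (-0.69), Tcl1 (-0.65) and Tfcp2l1 (-0.59). Klf2 (-0.46), Sall4 (-0.54), Tcl1 (-0.55) and Tfcp2l1 (-0.50) were within 1.5-fold with equal totals, and also after quantile normalization. The 2 higher members were Zfp42, at 28.9, 43.0 and 46.5 TPM (0.67), and Tet1, a 5-methylcytosine oxidase gene, at 7.01, 11.6 and 11.3 TPM (0.62). Pou5f1 (-0.51), Klf5 (-0.05), Stat3 (0.03), Rif1 (0.01) and Tet2 (0.05) were within 1.5-fold.

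Both receptor genes were within 1.5-fold. Esrrb RNA stood at 5.94 TPM at 60 minutes, 6.27 TPM at 90 minutes and 4.33 TPM at 120 minutes with auxin (-0.38), and at 5.26 TPM at 120 minutes and 6.64 TPM at 60 minutes without auxin (-0.29). Nr5a2 RNA stood at 3.80, 5.65 and 4.97 TPM with auxin (0.31), and at 5.71 TPM at 120 minutes and 4.85 TPM at 60 minutes without auxin (0.20). RNA does not measure the protein that auxin degrades, so these values do not check the degradation. The naive list had a median of -0.26 with auxin, where that of all genes was -0.09, and of -0.26 without auxin, where that of all genes was -0.18. Without auxin 10 members were 1.5-fold lower and the same number, 2, was 1.5-fold higher, beside 20.4% and 5.54% of all genes without auxin. Klf2 differed by -0.62 with auxin and -0.23 without, Dppa5a by -1.20 and -0.85, and Tfcp2l1 by -0.59 and -0.31, while Nanog differed by -1.25 and -1.23. Among the lower members the opposite order held for Lin28a (-1.16 and -1.33), Gbx2 (-0.83 and -1.10), Spp1 (-0.83 and -0.90) and Tcl1 (-0.65 and -0.68). These differences between arms have no test. Of 10 of 19 formative and primed pluripotency genes, 2 were lower, Zic2 (-0.72) and Tcf15 (-0.67), and 1 was higher, the FGF target Etv4 (0.87). These counts were not far from the 16.1% and 8.63% of all genes, and the list median was -0.37. Both lower members were within 1.5-fold with equal totals (-0.57 for Zic2, -0.53 for Tcf15) and after quantile normalization (-0.53 and -0.49).

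**Figure D2:**
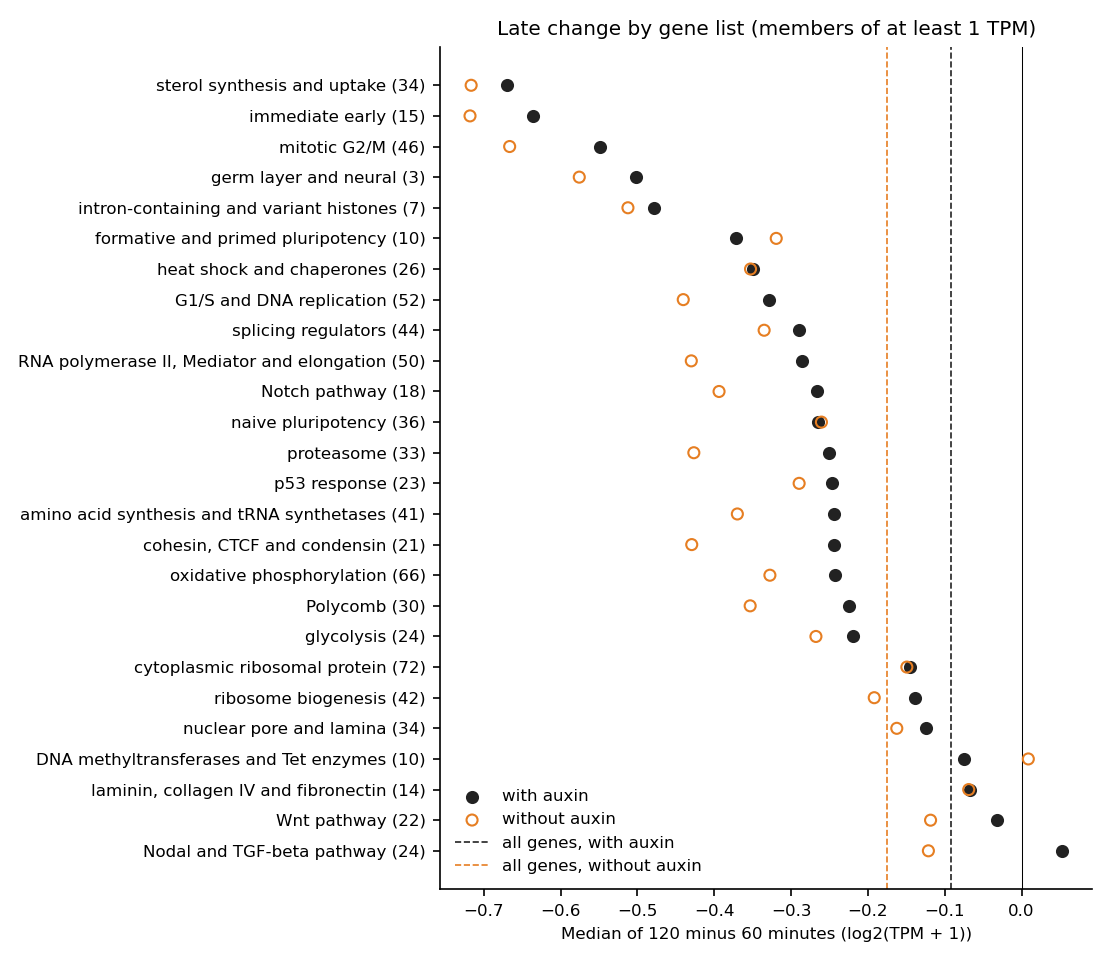
Median difference between 120 and 60 minutes in log2(TPM + 1) for each gene list with 3 or more members of at least 1 TPM (number in parentheses), with auxin (filled) and without auxin (open). Dashed lines mark the median of all genes, -0.09 with auxin and -0.18 without. Sterol, immediate early and mitotic genes lie furthest to the left, and as deposited the Nodal and TGF-beta list is the one above 0 with auxin, which the Wnt, laminin, DNA methyltransferase, nuclear pore and both ribosome lists join with equal totals or after quantile normalization.

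Within signalling pathways, members lay on both sides of their 60-minute level. In the Notch pathway, by which neighbouring cells signal, 6 of 18 members were 1.5-fold lower and 2 higher, beside 16.1% and 8.63% of all genes (median -0.27). The ligand genes Dll1, at 6.92 TPM at 60 minutes, 4.26 TPM at 90 minutes and 2.09 TPM at 120 minutes (-1.36), and Jag1, at 9.94, 5.72 and 3.32 TPM (-1.34), were lower, as was the target Hes1 (-0.99). The receptor gene Notch3, at 1.87, 3.84 and 5.89 TPM (1.26), and the ligand gene Jag2, at 3.35, 5.95 and 7.39 TPM (0.95), were higher. In the Wnt pathway 5 of 22 members were lower and 2 higher, not far from the 16.1% and 8.63% of all genes, with a median of -0.03 that was 0.10 with equal totals and 0.07 after quantile normalization. The receptor gene Fzd5 had 15.1, 7.83 and 5.49 TPM (-1.31) and the target Ccnd1 5.28, 4.93 and 2.38 TPM (-0.89), while the co-receptor gene Lrp6 had 1.18, 2.33 and 3.10 TPM (0.91) and Apc, a part of the beta-catenin destruction complex, 4.21, 6.04 and 7.20 TPM (0.65). In the Nodal and TGF-beta pathway 2 of 24 members, the inhibitor genes Smad7 (-1.08) and Skil (-0.63), were lower and 1, the effector gene Smad3 (0.67), was higher, with a median of 0.05. Skil was within 1.5-fold with equal totals (-0.48), and Skil (-0.44) and Smad3 (0.55) were so after quantile normalization. In RefSeq the higher genes Smad3, Lrp6, Apc and Notch3 span 111229, 120438, 101894 and 46077 bp, and the span of Jag2 is not reported here. The lower genes Hes1, Fzd5, Dll1 and Ccnd1 span 2440, 7193, 9579 and 9901 bp, and Skil, Smad7 and Jag1 span 27866, 28571 and 35070 bp. The spans of the other lower members, Hey1, Maml1, Adam10, Axin2, Dvl2 and Gsk3a, are not reported here. The spans given thus do not describe these lists as a whole.

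Genes of the p53 response also lay on both sides. Of 23 of 27 members, 3 were 1.5-fold higher and 5 were lower, beside 8.63% and 16.1% of all genes, with a median of -0.25. Perp, a membrane protein of epithelial adhesion, stood at 0.58 TPM at 60 minutes, 1.78 TPM at 90 minutes and 3.37 TPM at 120 minutes (1.47), and Mdm4, an inhibitor of p53, at 18.1, 27.4 and 33.9 TPM (0.87). Ddit4l was also higher (0.86). Sesn2 stood at 26.0, 16.9 and 14.5 TPM (-0.80), and Eda2r at 17.3, 9.92 and 9.95 TPM (-0.74). The pro-apoptotic gene Bbc3 was lower (-0.65). At 120 minutes Sesn2 and Eda2r were still above asynchronous cells, where they stood at 4.91 and 2.46 TPM. Ccng1 stood at 31.4 TPM at 120 minutes and 27.1 TPM at 60 minutes, within 1.5-fold.

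The span of the gene, from RefSeq positions, went with the sign of the difference. The median span was 45601 bp for the 759 higher genes with a position, 15149.5 bp for 1412 lower genes and 21925 bp for all 8809 genes with a position. In 10 equal groups of genes ordered by span, the group of the shortest (median span 3107 bp) had a median difference of -0.29, with 3.75% of genes higher and 25.7% lower past 1.5-fold. The group of the longest (142477 bp) had a median of 0.37, with 25.4% higher and 2.38% lower. The 2 groups of longest span had positive medians, 0.08 and 0.37, and each of the other 8 groups a negative one. More of the order by span lay between 60 and 90 minutes than after it. Between 90 and 60 minutes the median difference was 0.31 for the longest and -0.15 for the shortest group. Between 120 and 90 minutes the 9 groups of shorter span ranged from -0.14 to -0.10 and the longest group had 0.03. Of the genes in the longest group 52.0% were highest at 120 minutes and 7.15% at 60 minutes, against 14.2% and 38.9% in the shortest. Without auxin the medians were 0.26 for the longest and -0.31 for the shortest group.

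**Figure D3:**
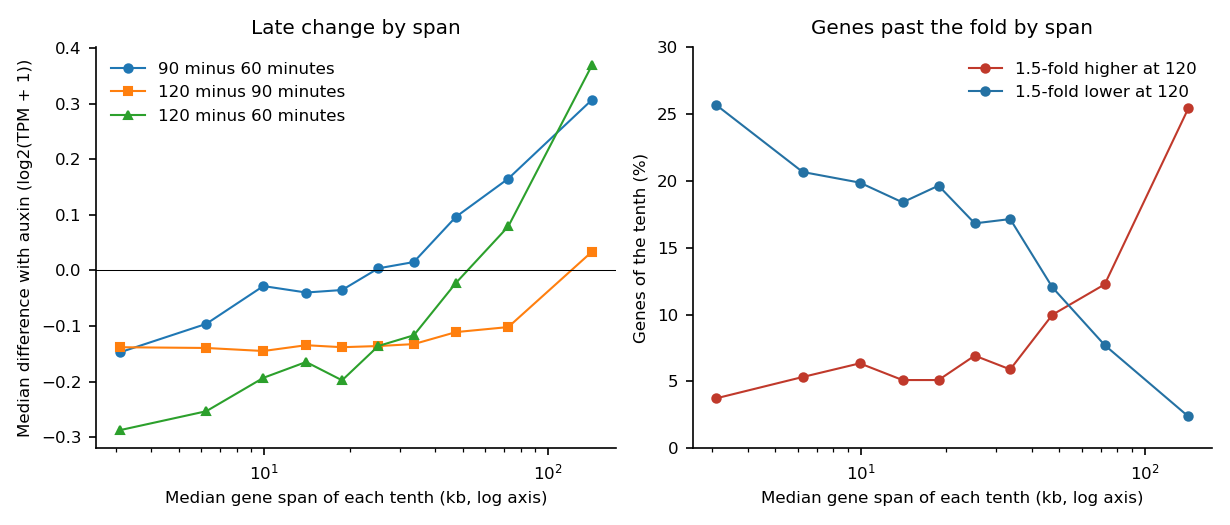
Left, median difference with auxin in log2(TPM + 1) for 10 groups of genes ordered by span, against the median span in kb on a log axis, for 90 minus 60, 120 minus 90 and 120 minus 60 minutes. Right, percent of the genes in each group that were at least 1.5-fold higher or lower at 120 than at 60 minutes. The line for 90 minus 60 minutes climbs with span, while that for 120 minus 90 minutes is nearly level up to the longest group.

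A group of 490 genes stood below their mitotic level at 60 minutes with auxin. Their median span was 83658 bp, and their median difference between 120 and 60 minutes was 0.49. Of these 187 (38.2%) were 1.5-fold higher at 120 than at 60 minutes and 1 was 1.5-fold lower, beside 8.63% and 16.1% of all genes. At 120 minutes 382 of them stood above the mitotic level. The choice of these genes uses the 60-minute value, so a higher later value is partly set by the choice.

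A pair of neighbouring noncoding loci, chosen after the ranking was seen, show the order along the genome. On chromosome 12 (positions from RefSeq GRCm38.p6), Meg3 lies at chr12:109540996-109571729, Rian at chr12:109603945-109661716 and Mirg at chr12:109734981-109749458, at 62.9 kb and 194 kb from the start of Meg3. They are transcribed in one direction from the maternal copy of an imprinted region. Meg3 stood at 18.7 TPM in mitotic cells and at 18.8, 21.1 and 14.7 TPM at 60, 90 and 120 minutes with auxin, with its lowest value of these at 120 minutes. Rian stood at 7.54 TPM in mitotic cells, 3.26 TPM at 60 minutes, 10.5 TPM at 90 minutes and 12.8 TPM at 120 minutes. Mirg stood at 2.37, 0.54, 1.58 and 9.48 TPM at the same stages. Rian and Mirg were thus lowest at 60 minutes, and Rian was above its mitotic level by 90 minutes whereas Mirg was above it at 120 minutes. Without auxin Rian had 3.32, 10.6 and 12.6 TPM and Mirg 0.61, 1.32 and 9.72 TPM at 60, 90 and 120 minutes.

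On chromosome 15 Myc lies at chr15:61985341-61990361 and Pvt1 at chr15:62037986-62260215. Their courses were opposite with auxin: Myc peaked at 50 minutes at 7.24 TPM and stood at 1.68 TPM at 120 minutes, while Pvt1 was lowest at 60 minutes at 1.66 TPM and stood at 9.80 TPM at 120 minutes. At 120 minutes without auxin Myc stood at 2.28 TPM and Pvt1 at 10.4 TPM.

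**Figure D4:**
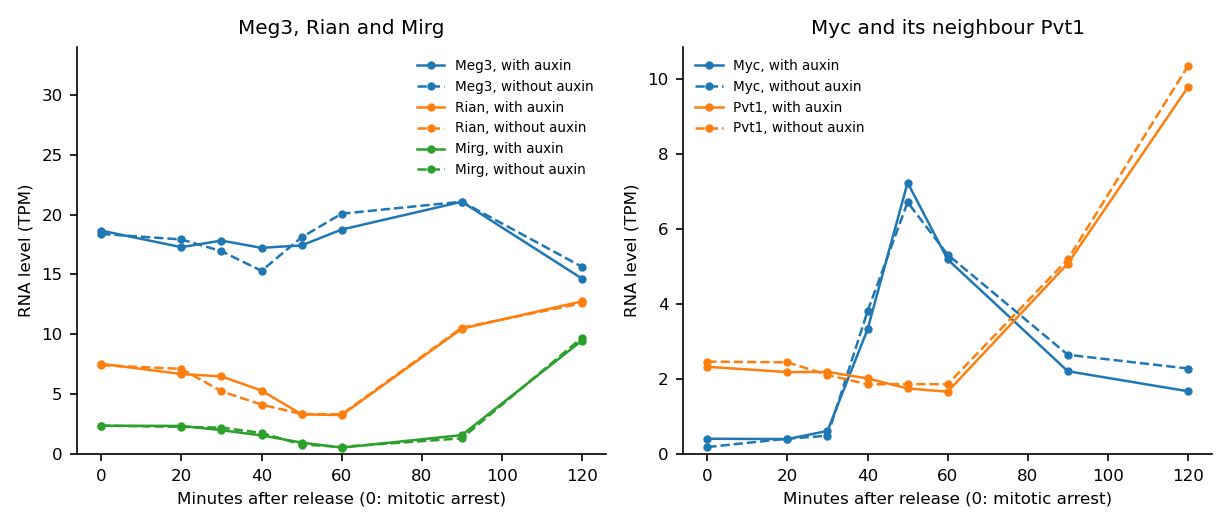
RNA level in TPM against minutes after release (0 is mitotic arrest) for Meg3, Rian and Mirg (left) and for Myc and Pvt1 (right), with auxin (solid) and without auxin (dashed). Each point is the authors' mean of 3 libraries. Rian is high by 90 minutes and Mirg by 120 minutes. Myc rises above Pvt1 between 30 and 40 minutes and falls below it again between 60 and 90 minutes.

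Of 10 microRNA genes of at least 1 TPM, 3 were 1.5-fold higher and 3 were 1.5-fold lower, beside 8.63% and 16.1% of all genes. One of the others, Mir30a, was listed at 0 at both 120 and 60 minutes. MicroRNAs direct repression through their seed, bases 2 to 8, which is in capitals below. The mature sequences from RefSeq (GRCm38.p6) of members with large differences are shown because no pair of the 10 mature forms at hand shares a seed.
mmu-miR-34a-5p: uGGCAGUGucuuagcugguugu
mmu-let-7d-5p: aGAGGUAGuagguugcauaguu
mmu-miR-20a-5p: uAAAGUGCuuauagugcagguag
Mir34a, a target of p53, stood at 8.18 TPM at 60 minutes, 19.3 TPM at 90 minutes and 31.7 TPM at 120 minutes (1.83). Mirlet7d, of the let-7 family that Lin28a restrains, stood at 5.13, 13.4 and 14 TPM (1.29), and Mir421 at 0.76, 1.39 and 2.5 TPM (1.0). Mir20a, of the cluster that promotes proliferation, stood at 21.3, 4.54 and 2.39 TPM (-2.72). Mir17hg, annotated beside it as the host gene of that cluster, had the opposite course, at 24.0, 29.9 and 40.3 TPM. Mir1946b stood at 8.18, 3.40 and 3.05 TPM (-1.18). Mir496a, which lies inside Mirg, stood at 0.79 TPM at 60 minutes and was listed at 0 at 120 minutes. No source used here says whether these entries count mature or precursor RNA, and so short an entry gives an imprecise TPM.

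The arm without auxin, whose libraries are separate, had a late course much like that with auxin. Across the same 8864 genes the differences between 120 and 60 minutes of the 2 arms had Pearson's r = 0.964 and Spearman's rho = 0.964, a description across genes that are not independent. The median was -0.18 without auxin, where 491 genes (5.54%) were 1.5-fold higher and 1804 (20.4%) 1.5-fold lower, and 5619 (63.4%) were lower by any amount. Of the 765 genes higher with auxin 459 (60.0%) were also past the fold without auxin, which is 93.5% of the 491. Of the 1428 lower genes 1316 (92.2%) were, which is 72.9% of the 1804. In each direction 3 genes had the opposite sign without auxin. As deposited, 7259 genes (81.9%) had a more positive difference with auxin, by a median of 0.09. The median late differences were 0.036 with and 0.030 without auxin at equal totals, and 0.013 and 0.0088 after quantile normalization. These scalings give both arms a common total or distribution, so the nearness of these medians is partly set by the method. The cause of the shift was not tested. TPM totals were 41287 at 120 minutes and 46542 at 60 minutes with auxin, and 40735 at 120 minutes and 49059 at 60 minutes without auxin. With auxin minus without auxin, the median level as deposited differed by -0.06 at 60 minutes, 0.03 at 90 minutes and 0.04 at 120 minutes.

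**Figure D5:**
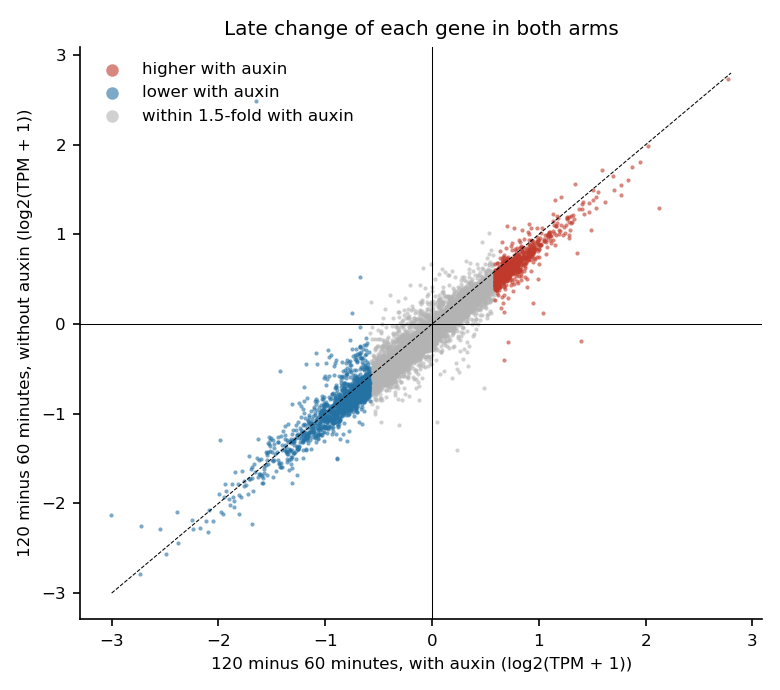
Each point is a gene, with its difference between 120 and 60 minutes in log2(TPM + 1) with auxin (x axis) and without auxin (y axis). Colours mark genes at least 1.5-fold higher or lower at 120 minutes with auxin, and the dashed line marks equal differences. Most points lie close to the dashed line (r = 0.964 across 8864 genes).

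A difference of 1.5-fold or more between the arms' late changes was seen for 25 genes (0.282%) more positive with auxin and 20 (0.226%) more negative. Adam1a stood at 4.01 TPM at 120 minutes and 3.27 TPM at 60 minutes with auxin, against 1.53 and 5.68 TPM without auxin. Zc3h7a, which binds RNA, stood at 7.31 and 4.93 TPM with auxin and at 4.32 and 7.75 TPM without, but its level with auxin was erratic, with 3.03, 88.5 and 6.19 TPM at 30, 40 and 50 minutes. Nudt8 (0.89 and 0.83 TPM with auxin, 0.90 and 3.06 TPM without) and Fam177a (3.59 and 1.79 TPM with auxin, 3.07 and 3.67 TPM without) differed between arms mainly at 60 minutes. Mapkapk5, a stress kinase gene, stood at 0.98 TPM at 120 minutes and 2.17 TPM at 60 minutes with auxin and at 2.02 and 1.10 TPM without. The small nucleolar RNA host gene Snhg5 stood at 0.93 and 5.04 TPM with auxin and at 4.6 TPM and a listed 0 without, so no fold is given. Most of the genes at either end of this ranking lay below 5 TPM in all 4 groups, as Adat3, Snhg12, Rpl22l1, Dusp28, 2310009A05Rik, Ccdc166, Chpf and Pigyl did.

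Binding of Nr5a2 in wild-type cells, as the authors' peak list within 10 kb of a gene, was set beside the difference within 3 equal groups of span. Among genes with short spans the median difference was -0.21 with no peak, -0.24 with 1 or 2 and -0.27 with 3 or more. In the middle group it was -0.14, -0.16 and -0.18, and in the long group 0.10, 0.08 and 0.19. In the long group the genes with 3 or more peaks had a median span of 89004 bp and those with none 54798.5 bp. By the call in the authors' deposited table, made on these same samples, the 804 genes called lower with auxin had a median late difference of -0.07 with auxin and -0.09 without, the 765 called higher -0.08 and -0.20, and the 7295 others -0.09 and -0.18. The core letters AAGGTCA of the receptors' element, searched on both strands, was found in windows of 3.19% of lower genes, 3.48% of higher genes, 3.63% of genes of at least 1 TPM and 4.72% of all windows.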

How the data were processed

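RNA libraries were ribo-depleted and stranded, per the labels' protocols. The authors deposited RNA levels as TPM in 1 column per group, the mean of 3 libraries. STAR, RSEM, DESeq2, Bowtie2 and MACS2 and the mm10 build appear, with no version, per the submitters' processing notes. The sources used here give neither library depth nor the gene parts counted. TPM keeps no depth, so no counting interval was computed.

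From the deposited TPM values, log2(TPM + 1) was taken per group, and the difference at 120 minus 60 minutes with auxin was computed for genes of at least 1 TPM in any of the 9 stages with auxin. A gene was counted as higher or lower past 1.5-fold. With 1 value per group there is no test and no p-value. Computation used Python 3.11.15, pandas 2.3.3, numpy 2.4.6 and scipy 1.17.1, and figures matplotlib 3.10.9. Scripts were tested on simulated data. Gene spans and promoter windows came from RefSeq on GRCm38.p6, which 8809 of the 8864 genes matched by symbol for spans and 7164 for promoters. Nr5a2 peaks were assigned to a gene within 10 kb of its span.

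Genes named are the 14 with the largest difference each way that differed the same way at 90 minutes, the receptor genes, naive genes past the fold, the 3 members of each list with the largest difference, and the 8 genes each way whose late change differed most between arms. Others were named after their values were seen, and a few genes the rule gives are not reported here. The genes and the 30 lists were chosen with earlier results of these data known. Alternatives were a pseudocount of 0.1, equal totals, quantile normalization, other filters and a 2-fold limit.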

Additional observations from a re-analysis of the deposited data

How the results depend on the processing

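Each value is 1 group mean, so its error is unknown, and low genes have imprecise TPM. No paired analysis was possible because the deposited columns are group means without replicate numbers, so no fit with a replicate block was run and leaving out single replicates was not run. With a pseudocount of 0.1 there were 1366 higher and 2091 lower genes, the median over genes was -0.12 and the median without auxin -0.22. The share of genes past the fold that differed the same way at 90 minutes was then 98.5% (99.4% as deposited), and the longest minus the shortest span group 0.93. With equal totals 1210 genes were higher and 971 lower, the median was 0.036 and that without auxin 0.030. After quantile normalization 812 genes were higher and 850 lower, the median was 0.013, that without auxin 0.0088, and the share moving the same way at 90 minutes 99.8%. Without a filter the median was -0.0027. With at least 5 TPM there were 285 higher and 862 lower genes and a median of -0.20. At 2-fold there were 100 higher and 362 lower genes. List medians that turned positive with equal totals and after quantile normalization were ribosome biogenesis (0.012 and 0.064), ribosomal protein (0.015 and 0.052), DNA methyltransferases and Tet enzymes (0.074 and 0.086), Wnt (0.10 and 0.074), laminin (0.048 and 0.020) and nuclear pore (0.016 and 0.058). The cause was not tested. Genes named by the rule kept their sign in the pseudocount, equal-total and quantile alternatives, but 4, 11 and 17 of them crossed 1.5-fold. Lower genes that came within it under both scalings were Klf2, Sall4, Tcl1, Tfcp2l1, Zic2, Tcf15, Skil, Bop1 and Hist1h2bc, and after quantile normalization also Psmd3, Psma2 and Mapkapk5. Higher genes that did so after quantile normalization were Smad3, Itgav, Nup210 and Snhg12.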

Other observations

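Housekeeping lists lay lower at 120 than at 60 minutes with auxin in most members, by little. Over all genes 16.1% were 1.5-fold lower and 8.63% higher, with a median of -0.09. Of 50 genes of RNA polymerase II, Mediator and elongation 12 were 1.5-fold lower and 1 was higher (median -0.29). Gtf2f1, a general initiation factor, stood at 11.4 TPM at 60 minutes, 6.62 TPM at 90 minutes and 4.03 TPM at 120 minutes (-1.31), and the polymerase subunit gene Polr2l stood at 13.2, 7.04 and 5.65 TPM (-1.10). Med23, a Mediator subunit, was the higher one, at 2.12, 4.70 and 5.62 TPM (1.09). Of 44 splicing regulators 9 were lower and 1, Ptbp2 (0.70), was higher (median -0.29). Srsf7 stood at 55.9, 30.1 and 25.1 TPM (-1.12), Srsf3 at 45.5, 25.4 and 21.8 TPM (-1.03), and the kinase gene Clk1, which phosphorylates such factors, at 23.4, 13.8 and 10.4 TPM (-1.10). Chaperone genes had 6 of 26 members lower and none higher (median -0.35), led by Hspb1 (-1.20), Hspa5 (-1.16), which folds proteins in the endoplasmic reticulum, and their regulator Hsf1 (-0.91). Variant and intron-containing histones had 3 of 7 lower (median -0.48), among them H3f3a (-1.26), H2afv (-0.79) and Hist1h2bc (-0.71), which has close copies.

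Metabolic lists had shares of lower genes mostly near the 16.1% of all genes. Their shares of higher genes were at or below the 8.63% of all genes. Of 41 genes of amino acid synthesis and tRNA charging 10 were lower and 2 higher (median -0.24). Ddit3, a stress transcription factor, stood at 18.8, 6.79 and 5.21 TPM at 60, 90 and 120 minutes (-1.68), the transporter gene Slc7a5 at 25.2, 13.1 and 8.57 TPM (-1.45), and Cth at 5.71, 3.45 and 2.20 TPM (-1.07). Mthfd1l (0.70) and Gars (0.59) were the higher ones. Of 24 glycolysis genes 4 were lower and 2 higher (median -0.22). The lactate carrier gene Slc16a1 was lower (-1.54), as were Aldoc (-0.93) and the hexokinase gene Hk2 (-0.91), while another lactate carrier gene, Slc16a3 (0.90), and Ldha (0.71) were higher. Oxidative phosphorylation had 10 of 66 lower and 1, Ndufs4 (0.82), higher (median -0.24), with Uqcrh (-1.09), Atp5e (-1.04) and Atp5a1 (-0.92) lowest. The proteasome had 5 of 33 lower and none higher (median -0.25), led by Psmd2 (-0.83), Psmd3 (-0.75) and Psma2 (-0.73).

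Chromatin lists were mixed, beside 16.1% lower and 8.63% higher over all genes. Of 30 Polycomb genes 7 were lower, among them Ring1 (-1.0) and Rbbp7 (-0.94), and Pcgf3 (0.82) was higher (median -0.22). Of 21 cohesin, CTCF and condensin genes 5 were lower, with Esco2 (-0.95), Ncapd2 (-0.91) and Ncapg (-0.80) lowest, and Stag1 (0.62) was higher (median -0.24). Of 10 DNA methyltransferase and Tet genes Trim28 was lower and Uhrf2 (0.68) and Tet1 were higher (median -0.07, and 0.07 with equal totals and 0.09 after quantile normalization). Nuclear pore and lamina genes had 2 of 34 lower, Kpna2 (-1.01) and Nup50 (-0.87), and 2 higher, Nup210 (0.64) and Nup85 (0.59), with a median of -0.12 that was 0.02 with equal totals and 0.06 after quantile normalization. Ribosome biogenesis had Nolc1 (-0.82) and Bop1 (-0.61) lower of 42, and Noc3l at -0.58 (median -0.14, and 0.01 and 0.06 under these scalings). Ribosomal protein genes had 3 of 72 lower, among them Rps28 (-0.88) and Rps16 (-0.82), and 2 higher, Rps10 (0.77) and Rpl24 (0.68), with a median of -0.14, and 0.01 and 0.05 under these scalings. Many ribosomal protein genes have processed copies, so their values are uncertain. Laminin, collagen IV and fibronectin genes had Itgav (0.69) higher of 14, with Lamb1 at 0.49 and Dag1 at -0.46 (median -0.07, and 0.05 and 0.02 under these scalings). Of 242 long noncoding RNA genes 26 were higher and 34 lower (median -0.13), and of 8531 protein-coding genes 726 and 1374 (median -0.09).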
